A study of Homo sapiens with 3 samples.

Results

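The extracellular signal-regulated kinase (ERK) pathway carries signals from growth factor receptors through RAS, RAF and MEK to ERK, and it is held in check by inhibitors whose genes it switches on itself. Dual specificity phosphatases of the DUSP family remove phosphate from ERK and from the related kinases JNK and p38. Sprouty proteins (SPRY) and the related SPRED proteins act further up, between the receptors and RAF. In cells with a mutated or strongly driven pathway, the transcripts of these inhibitors are commonly read as a measure of its output. The genes described here are 10 members of these families, DUSP1, DUSP4, DUSP5, DUSP6, DUSP10, SPRY1, SPRY2, SPRY4, SPRED1 and SPRED2, chosen by gene symbol out of 17185 named genes. All 10 were measured, by 11 of the 45033 probe sets of the array.

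The samples came from MNNG/HOS, an established human osteosarcoma line obtained by chemical transformation of HOS cells, grown without serum. After 5 days the spheres that had formed were removed, and the adherent cells left behind were cultured on. The untreated group was kept 5 days without added factor. The day 3 group was given 4 ng/mL of TGF-beta1, transforming growth factor beta 1, and harvested after 3 days. The day 5 group was given the same 4 ng/mL and, after 5 days, its floating spheres alone were harvested. Each group is 1 culture of 1 line on 1 array, so no difference below has a replicate check, no p-value was computed, and the number of arrays limits the precision of every value. The day 3 array differs from the untreated one in treatment, in days of culture and possibly in which cells were harvested, and the sphere array in treatment and in which cells were harvested. These factors cannot be told apart, nor can fewer cells with a transcript and less of it per cell.

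Values are intensities that the authors made with robust multi-array averaging (RMA), and median intensities of the arrays lay between 437 and 455. A gene was called higher or lower where 2 arrays were 2-fold or more apart. Intensities of different probe sets depend on their sequences, so levels were compared between arrays and not between genes. Of 6 listed osteoblast or mesenchymal markers, 5 were above the lower quartile of gene values (an intensity of 63.4) on all 3 arrays, among them RUNX2, the bone transcription factor, at 4000, 4818 and 3246 in untreated cells, day 3 and spheres, and the collagen gene COL1A1 at 1755, 10781 and 7408. The exception was ALPL, the alkaline phosphatase gene, at 45.8 in untreated cells. Of 4 leukocyte markers 3 stayed under that quartile on each array, with PTPRC at 18.5 to 25.9, while CD14 was at 509 in untreated cells, 141 at day 3 and 201 in spheres. Of 3 endothelial markers 2 stayed under it, with VWF at 17.9 to 30.8 and KDR at 55.0 in untreated cells, 11.7 at day 3 and 8.64 in spheres, while CDH5 was at 110 to 126. The part of other cell types in the results below was not tested. Of 4 epithelial markers, the cadherin gene CDH1 was at 8.59 to 10.04, while EPCAM (1320 to 1509) and the keratin genes KRT8 and KRT18 (13910 to 26114) were well above it.

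Among the 10 genes, SPRY1 and DUSP1 differed by 2-fold or more between arrays, and the other 8 did not in any comparison. SPRY1 was highest in untreated cells, lower at day 3 and lowest in the spheres. DUSP1 was highest at day 3 and lowest in the spheres. The remaining genes kept within 1.08-fold to 1.56-fold between their highest and lowest array.

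**Figure D1:**
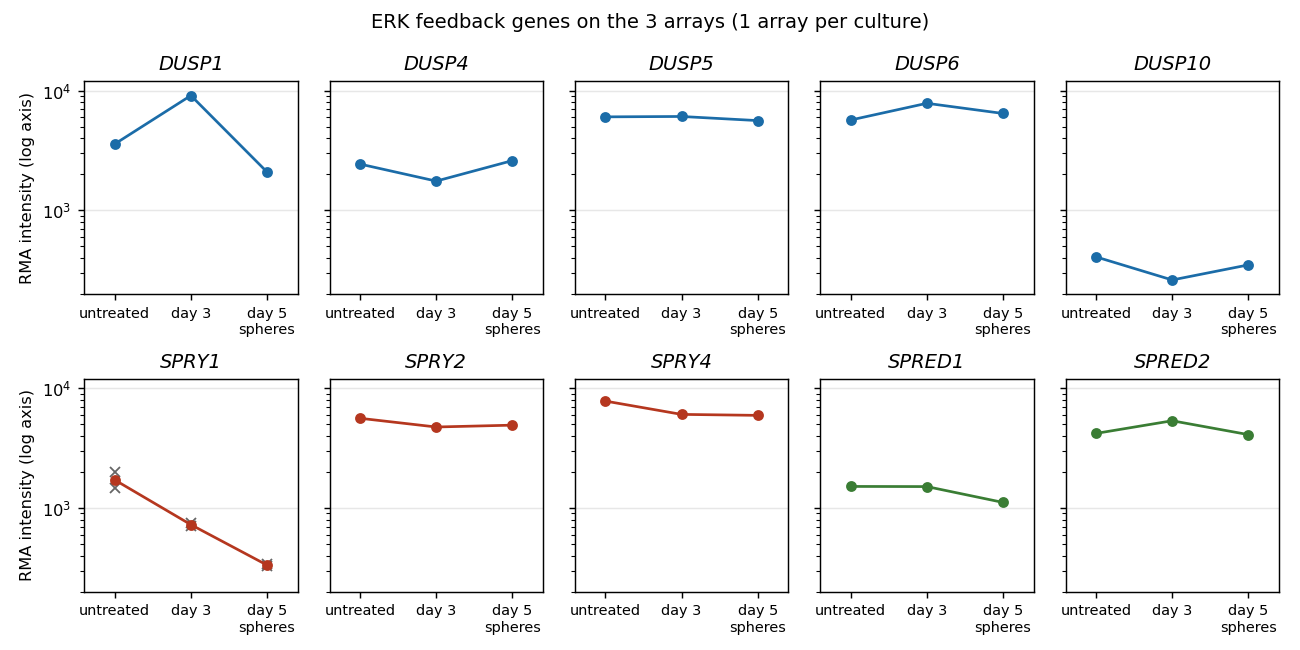
Intensity of each gene (logarithmic axis) on the untreated, day 3 and day 5 sphere arrays. Dots are the gene's value, and crosses in the SPRY1 panel are its 2 probe sets. SPRY1 runs from 1716 to 334 and DUSP1 between 2087 and 9081, while the other genes span 1.08-fold to 1.56-fold.

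The regulatory DNA of SPRY1 and DUSP1 is shown for reference, since only these 2 of the 10 genes reached 2-fold between arrays. RefSeq promoter windows (build GRCh38.p14) were found for 8 of the 10 genes, in 13 windows; DUSP4 and DUSP5 had none. The 250 bases before the start are given 5′ to 3′ on the gene's strand, at chr5:172771196-172771445 (minus strand) for DUSP1, and at chr4:123396545-123396794 and chr4:123398136-123398385 (plus strand) for a pair of SPRY1 starts. Capitals mark matches, on either strand, to 4 motifs: the AP-1 site (TGANTCA), the core of the cAMP response element (TGACG), an ETS core (CCGGAA) and a SMAD element (CAGAC).
DUSP1: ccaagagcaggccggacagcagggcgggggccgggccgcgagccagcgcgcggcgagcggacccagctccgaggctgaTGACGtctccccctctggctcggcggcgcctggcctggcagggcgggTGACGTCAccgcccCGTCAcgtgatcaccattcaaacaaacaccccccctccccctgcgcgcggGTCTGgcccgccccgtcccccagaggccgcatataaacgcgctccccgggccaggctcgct
SPRY1 upstream start: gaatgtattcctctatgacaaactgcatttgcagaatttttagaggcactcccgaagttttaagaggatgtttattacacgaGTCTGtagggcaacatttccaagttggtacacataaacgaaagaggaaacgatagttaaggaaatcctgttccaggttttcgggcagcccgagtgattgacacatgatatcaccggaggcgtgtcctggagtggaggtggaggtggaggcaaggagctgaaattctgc
SPRY1 downstream start: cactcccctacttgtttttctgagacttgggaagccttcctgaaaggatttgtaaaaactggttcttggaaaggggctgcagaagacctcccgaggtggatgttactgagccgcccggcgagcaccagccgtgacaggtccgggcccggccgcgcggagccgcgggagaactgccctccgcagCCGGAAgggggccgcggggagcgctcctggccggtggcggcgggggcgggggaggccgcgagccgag

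The DUSP1 window held 4 matches to the cAMP response element core, at 172, 125, 122 and 111 bases before the start counted to the first base of each match. The match at 125 overlaps the one at 122, on the other strand. Of 35116 promoter windows of this length, 21.2% had at least 1 such match and 83 (0.236%) had at least 4. The cut-off of 4 equals the count in DUSP1 itself, so the second share is a description only. DUSP1 also had a SMAD element at 61 bases, as did the upstream SPRY1 window at 168 bases, a motif found in 38% of all windows. The downstream SPRY1 window had an ETS core at 67 bases, found in 14.5% of windows. No window of the 8 genes had the AP-1 letters, which 6.57% of all windows held. These matches describe the letters only, and binding was not measured.

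DUSP1 encodes a nuclear phosphatase of p38, JNK and ERK and is itself an immediate early gene, transcribed soon after growth factor or stress signals. Its intensity was 3575 in untreated cells, 9081 at day 3 and 2087 in spheres. Day 3 stood above both other arrays. The value was 2.54-fold higher at day 3 than in untreated cells (log2 difference 1.34) and 4.35-fold lower in the spheres than at day 3 (log2 difference -2.12). Against untreated cells the spheres were 1.71-fold lower, short of 2-fold. Among the 8578 genes whose mean level reached the median of gene values (an intensity of 685), 147 had a higher day 3 difference from untreated cells than DUSP1, and 29 a lower difference between spheres and day 3. DUSP1 had 1 probe set, so no second measurement of it was available.

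The other nuclear phosphatases had smaller spans. DUSP4, which acts on ERK and JNK, was at 2432 in untreated cells, 1753 at day 3 and 2600 in spheres, so that day 3 was the lowest array where it was the highest for DUSP1. The spheres were 1.48-fold above day 3. DUSP5, which is specific for ERK, was at 6027, 6072 and 5610 on the same arrays. Its span of 1.08-fold was the smallest of the 10 genes, and 93.2% of the genes past the level filter had a span at least as large.

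DUSP6, the cytoplasmic phosphatase specific for ERK and one of the genes most often used to gauge ERK output, was at 5672 in untreated cells, 7823 at day 3 and 6432 in spheres. It was highest at day 3, as DUSP1 was, but by 1.38-fold over untreated cells. DUSP10 encodes a phosphatase that prefers JNK and p38. It was at 409 in untreated cells, 262 at day 3 and 350 in spheres, a difference of 1.56-fold between the highest and lowest array. DUSP10 was the 1 gene of the 10 whose mean level did not reach the median of gene values, and its lowest value was above the lower quartile of 63.4.

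The 3 Sprouty genes encode adaptors that are phosphorylated after receptor activation and dampen the passage of the signal to RAS and RAF. SPRY1 was at 1716 in untreated cells, 726 at day 3 and 334 in spheres. It was lower at each step from untreated cells to day 3 to spheres. The day 3 value was 2.36-fold lower than in untreated cells (log2 difference -1.24), and the sphere value 5.14-fold lower (log2 difference -2.36). Spheres were 2.18-fold lower than day 3, which is close to the threshold: with 64 added to each intensity before the logarithm the log2 difference was -0.99 instead of -1.12. Of the 8578 genes past the level filter, 21 had a lower difference between spheres and untreated cells, and 101 a lower difference between day 3 and untreated cells. SPRY1 had 2 probe sets, named by different transcripts of the gene. The probe set with the larger difference read 2003, 705 and 325 and the other 1470, 747 and 342, in the order untreated, day 3 and spheres. Both were thus lowest in the spheres, by 6.16-fold and 4.29-fold against untreated cells. At day 3 the second was 1.97-fold lower than untreated cells, just under 2-fold.

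SPRY2 and SPRY4 were also highest in untreated cells, by small amounts. SPRY2 was at 5611 in untreated cells, 4745 at day 3 and 4917 in spheres. SPRY4 was at 7811, 6047 and 5934. All 3 Sprouty genes were thus below untreated cells on both other arrays, but the median log2 difference of the 3 was -0.37 at day 3 and -0.40 in spheres. Between spheres and day 3, SPRY2 differed by 0.05 in log2 and SPRY4 by -0.03. For comparison, the SD of the log2 difference between probe sets of the same gene was 0.15 to 0.16 in the 3 comparisons, taken as the median over 1349 genes with several probe sets. This SD does not measure variation between cultures.

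SPRED proteins bring the RAS inhibitor neurofibromin to the membrane. SPRED1 was at 1514 in untreated cells, 1509 at day 3 and 1113 in spheres. Its first 2 values were nearly equal, and the sign of their difference, -0.004 in log2, turned to 0.05 when arrays were centred on their medians and to 0.03 after quantile normalization. SPRED2 was at 4195, 5350 and 4099 on the same arrays. Both genes had their lowest value in the spheres, SPRED1 by 1.36-fold against untreated cells and SPRED2 by 1.31-fold against day 3.

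**Figure D2:**
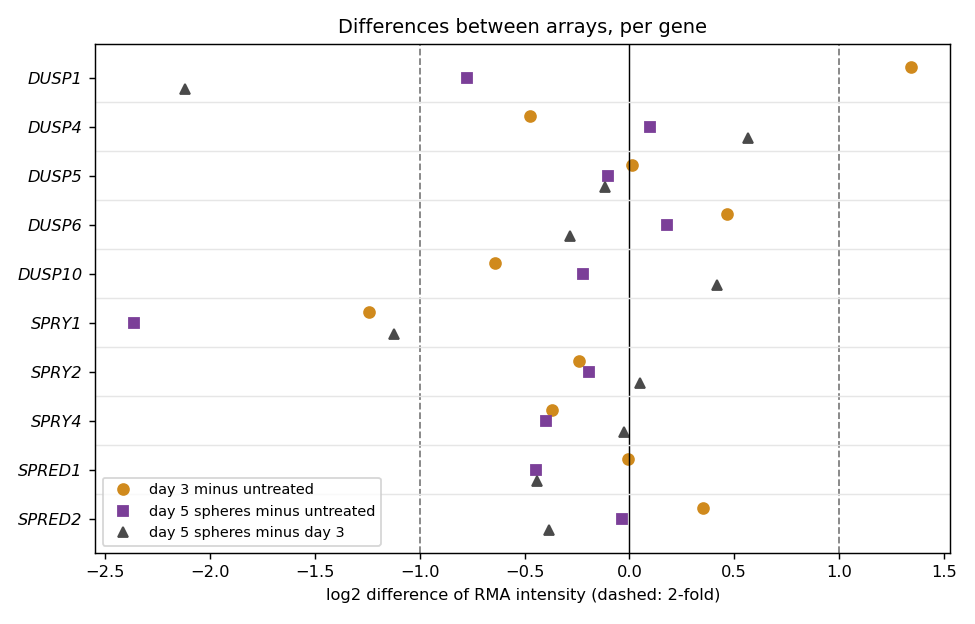
Log2 difference of each gene between pairs of arrays, with dashed lines at 2-fold. Points beyond the lines belong to DUSP1 (1.34 and -2.12) and SPRY1 (-1.24, -2.36 and -1.12), and the other 8 genes lie between -0.64 and 0.57.

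The first comparison sets these inhibitors after 3 days of TGF-beta1 against untreated adherent cells. DUSP1 was the 1 gene of the 10 at least 2-fold higher and SPRY1 the 1 gene at least 2-fold lower. Over all 17185 named genes the shares called were 5.77% higher and 5.26% lower, and over the genes past the level filter 3.37% higher and 2.35% lower, so a count of 1 in 10 in each direction is near the background. Of the 10 genes 4 were above 0 and 6 below, where 50.5% of all named genes were below. The median log2 difference of the 10 was -0.12, beside -0.01 for all named genes. Of the 10, 7 differed by under 1.5-fold, a share that was not computed over all genes.

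The second comparison sets the spheres after 5 days of TGF-beta1 against the same untreated array. SPRY1 was the 1 gene at least 2-fold lower and 0 were at least 2-fold higher, while over all named genes 5.00% were lower and 4.90% higher by that amount, and past the level filter 3.45% and 2.74%. The count is again near the background, although no more than 21 of the 8578 genes past the filter had a lower difference than SPRY1. Of the 10 genes 8 were below 0, where 49.4% of all genes were. The exceptions were DUSP4 and DUSP6, at 0.10 and 0.18 in log2. The median of the 10 was -0.21, against 0.01 for all named genes. Of the 10 differences 3 were smaller than the SD between probe sets, 0.16 in log2, a share that was not computed over all genes. With arrays centred on their medians, log2 differences in this comparison shifted by 0.03.

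The third comparison sets the spheres against day 3. DUSP1 and SPRY1 were at least 2-fold lower and 0 of the 10 were at least 2-fold higher, beside 4.72% lower and 5.78% higher over all named genes and 3.88% lower and 3.03% higher past the level filter. DUSP4, DUSP10 and SPRY2 were above 0 and 7 genes below, where 53.0% of all named genes were below. The median was -0.20 against -0.04 for all genes. Of the 10 differences 3 were smaller than the SD between probe sets, 0.15 in log2, again with no share computed over all genes. Taking the 3 arrays together, 5 of the 10 genes had their highest value in untreated cells, 4 at day 3 and 1 in spheres. In the spheres 6 had their lowest value. These orders were not counted over all genes, so no background share is given. Some of the 6 rest on small gaps, with SPRED2 in spheres at -0.03 in log2 from untreated cells and SPRY4 at -0.03 from day 3. All comparisons share arrays, so their counts are not independent.

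**Figure D3:**
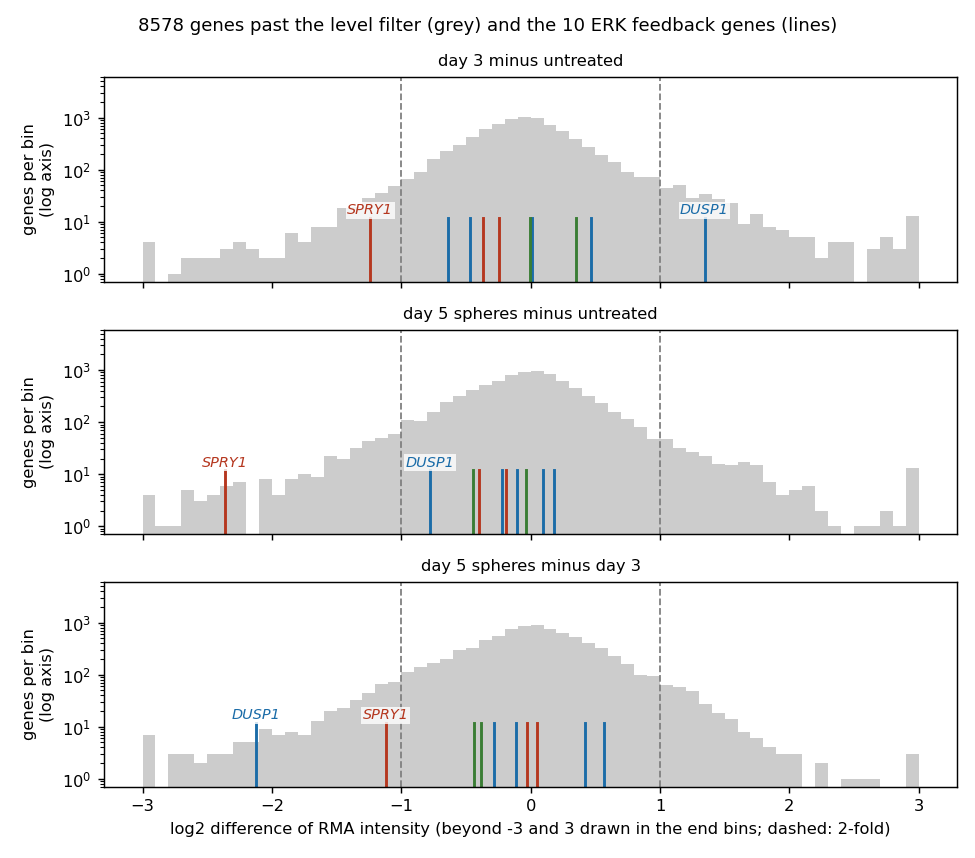
Distribution of log2 differences over 8578 genes past the level filter (grey bars, logarithmic axis of genes per bin) with the 10 genes as coloured lines (blue DUSP, red SPRY, green SPRED), in the 3 comparisons. SPRY1 at -2.36 in spheres against untreated cells and DUSP1 at -2.12 in spheres against day 3 lie in the sparse lower tails, and the other 8 genes lie within the dashed 2-fold lines in each panel.

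Counts for the lists of related genes below can be read against the shares called over all named genes given above, which were 5.77% higher and 5.26% lower at day 3, 4.90% and 5.00% in spheres against untreated cells, and 5.78% and 4.72% in spheres against day 3. Gaps of 2-fold were more frequent over all named genes than past the level filter. Of 13 measured relatives from the same 3 families, 5 of which passed the level filter, 1 was at least 2-fold higher at day 3 than in untreated cells and 0 were lower. This was DUSP23, a small atypical phosphatase, at 45.4 and 97.5, values near the lower quartile. No relative reached 2-fold between spheres and untreated cells. DUSP19 was 2.15-fold higher in spheres than at day 3, also below the level filter, at 444 against 206.5. DUSP2, another immediate early phosphatase of the nucleus, was at 294 in untreated cells, 575.5 at day 3 and 411 in spheres. It was highest at day 3 but short of 2-fold, and below the level filter. DUSP7 was instead lowest at day 3, at 714, 389 and 646 on the same arrays, also short of 2-fold. Both were picked after their values were seen. At day 3, 6 of the 13 relatives were above 0, with a median log2 difference of -0.03.

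Other inhibitors of receptors, RAS or RAF were listed with 20 measured genes. At day 3, 1 was at least 2-fold higher and 0 lower. This was CBLB, a ubiquitin ligase that marks signalling proteins for degradation, at 376 in untreated cells, 939 at day 3 and 893 in spheres. In spheres against untreated cells 2 were higher and 0 lower, CBLB by 2.37-fold and the receptor adaptor gene GRB14 by 5.00-fold from a low intensity of 93.5. Neither gene passed the level filter. In spheres against day 3, GRB14 was 6.24-fold and RASA2, a GTPase-activating protein of RAS, 2.31-fold higher. The list's median lay between -0.02 and 0.07 in the 3 comparisons.

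Of 23 measured kinases and adaptors of the ERK cascade itself, 0 were at least 2-fold higher and 1 lower at day 3, namely FRS2, the adaptor of FGF receptors, at 119 against 303. In spheres 1 was higher and 0 lower against untreated cells, RPS6KA2, a kinase activated by ERK, at 636 against 207. Against day 3, 3 were higher and 2 lower in spheres. The lower ones were RPS6KA1, another kinase of that family, by 3.04-fold and the adaptor SHC1 by 2.59-fold. RPS6KA2 was 2.93-fold and FRS2 2.35-fold higher, and neither passed the level filter. The called shares over all named genes were 5.78% higher and 4.72% lower in that comparison. Medians were -0.05, 0.01 and 0.03.

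The JNK and p38 kinases, on which DUSP1 and DUSP10 act, were listed with other kinases of their cascades, 14 measured genes in all. The JNK gene MAPK8 was listed too but was not among the measured genes. At day 3 the list held 1 gene called higher and 1 called lower. In spheres against untreated cells 2 were higher and 1 lower, and against day 3, 1 was higher and 2 lower. MAP2K3, an activator of p38, was 2.28-fold lower at day 3 and just past 2-fold lower in spheres than in untreated cells, with intensities of 2290, 1004 and 1144. MAPK10, the JNK gene best known from nerve cells, was 3.23-fold and 7.78-fold higher, starting from 45.7, under the lower quartile, and 2.41-fold higher in spheres than at day 3. MAPK13, a p38 gene, was 2.52-fold higher in spheres than in untreated cells, and like MAPK10 did not pass the level filter. MAP3K5 and MAP2K6, both activators of these kinases, were 2.44-fold and 2.20-fold lower in spheres than at day 3, and neither passed the level filter.

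Target genes of ERK signalling outside the set differed in both directions. Of 18 measured, 4 were called higher and 3 lower at day 3, with a median of 0.15, where 5.77% and 5.26% of all named genes were called. Of the 18, 16 passed the level filter. EGR1, an immediate early transcription factor, was at 5022 in untreated cells, 11636 at day 3 and 4909 in spheres. The EGF family ligand gene EREG followed the same order, at 1340, 3642 and 1101. So did its relative AREG, which did not pass the level filter, at 501, 1079 and 422. In contrast, the ligand gene HBEGF was at 5457, 1874 and 1164, and the receptor gene EPHA2 at 6762, 3137 and 2535. FOSL1, an AP-1 subunit, was 2.77-fold lower at day 3. EPHA4, another Eph receptor, was at 454, 1424 and 1597. Of the list's genes under 2-fold at day 3, the ETS factor genes ETV4 and ETV5 had log2 differences of 0.09 and 0.24, PHLDA1 of 0.19, CCND1 of -0.15 and the cytokine gene LIF of -0.59, 5 genes picked after their values were seen. In spheres against untreated cells 1 of the 18 was higher and 2 lower, and against day 3, 0 were higher and 3 lower, with medians of -0.06 and -0.01.

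Among 18 growth factor receptors and ligands, 7 of which passed the level filter, 3 were at least 2-fold higher and 3 lower at day 3, with a median of 0.35, where 5.77% and 5.26% of all named genes were called. In spheres 2 were higher and 2 lower against untreated cells (median -0.04), and 1 higher and 3 lower against day 3 (median -0.20). PDGFRB, a receptor of platelet-derived growth factor, was at 619 in untreated cells, 5240 at day 3 and 2770 in spheres. FGFR4, a fibroblast growth factor receptor, was at 658, 1456 and 439, with its highest value at day 3. EGFR, the epidermal growth factor receptor, was at 726, 239 and 758, lowest at day 3. Its value is a mean of 4 probe sets and did not pass the level filter. The ligand genes FGF2 and FGF5 were 3.08-fold and 4.63-fold lower at day 3 than in untreated cells, at low intensities below the level filter. FGFR2 was 2.13-fold higher in spheres than in untreated cells, and FGF1 and FGF18 were 3.12-fold and 2.64-fold lower in spheres than at day 3, all 3 also below the filter. Of 11 ETS and SRF family transcription factors, which read out ERK activity at promoters, 0 reached 2-fold in either direction in any comparison.

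**Figure D4:**
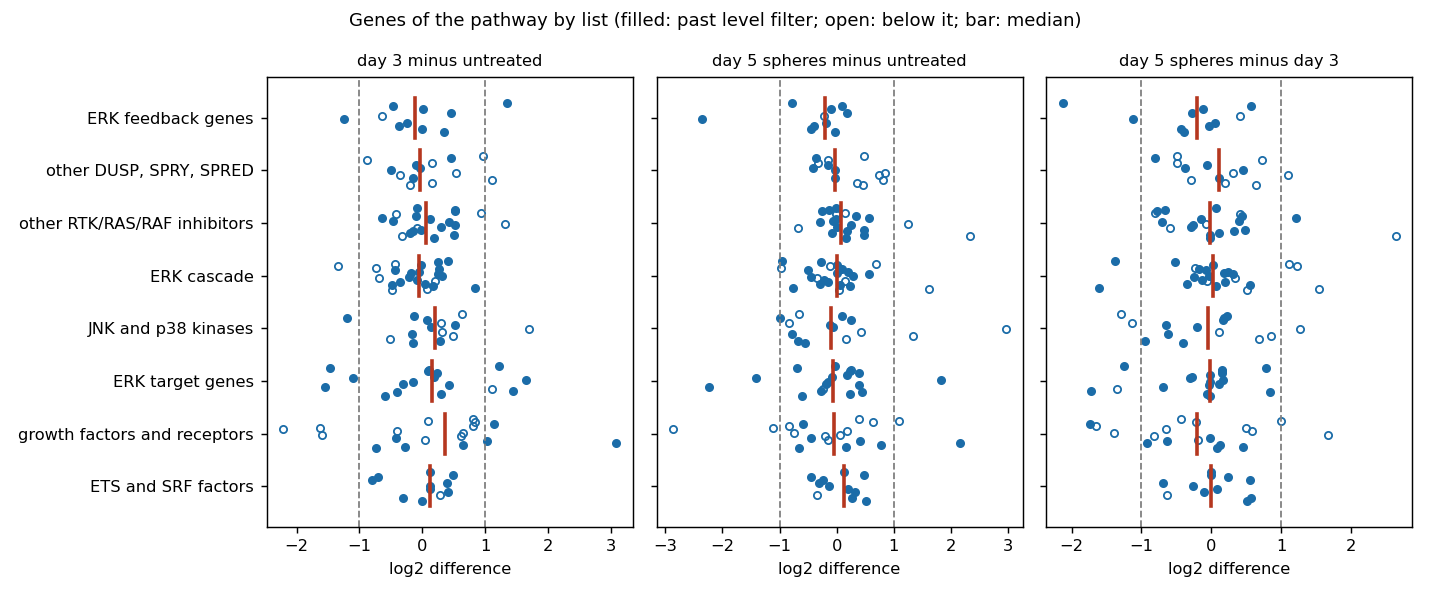
Log2 differences of the 10 genes and of 7 lists of related genes in the 3 comparisons, 1 dot per gene, filled where the gene's mean level passed the filter, with red bars at each median and dashed lines at 2-fold. Medians of the 10 genes and of the lists lie between -0.21 and 0.35, with single genes such as PDGFRB (3.08 at day 3) far outside.

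Genes with the nearest profiles were sought for the 3 genes with the largest spans among the 9 past the level filter (SPRY1, DUSP1 and DUSP4). The search covered 8521 of the 8578 genes past that filter and left out 57 with provisional or open reading frame symbols. Likeness was the Euclidean distance between the pairs of log2 differences from untreated cells, over 3 arrays. Nearest to SPRY1 were ARHGDIB at a distance of 0.20, the filamin gene FLNC at 0.24 and the receptor gene ROR1 at 0.28. ARHGDIB was at 10937, 4289 and 2379 in untreated cells, day 3 and spheres. Nearest to DUSP1 were ANGPTL4, a secreted regulator of lipoprotein lipase, at 0.14, the chemokine receptor gene CXCR4 at 0.18 and NINJ1, which acts in membrane rupture, at 0.22. CXCR4 was at 891, 2431 and 575. For DUSP4, whose differences are small and shared by many genes, the nearest were GPN3, CCDC91 and ZNF250, at 0.005 to 0.01. With 3 arrays, many genes can have alike profiles.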

How the data were processed

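Cy3-labelled total RNA of 3 cultures was read on single-colour arrays, 1 per culture, per the labels' protocols. The table deposited by the authors holds an intensity for each probe set on each array, on a linear scale from 2.37 to 51530. The submitters' processing notes name RMA. Its version, the scanner and the genome build were not given in the sources used here. RMA makes the distributions of arrays alike and would hide a shift common to most genes. Detection calls were not used here, so it is unknown which low values exceed background.

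Intensities were turned into log2 with Python 3.11.15, numpy 2.4.6 and pandas 2.3.3. Of 45033 probe sets, 18188 were named through the platform's gene table and 678 through RefSeq accessions (GRCh38.p14), none had several symbols, and 26167 stayed unnamed. Probe sets of one gene were averaged in log2; 9 of the 10 genes had 1 probe set. The level filter kept 8578 genes whose mean log2 over the 3 arrays reached the median of gene values. The 3 pairs of arrays were compared by a size rule of 2-fold, with no test. Motifs were searched in the 250 bases before each RefSeq start. The arithmetic of calls and folds was checked on simulated data without noise. That check says nothing of the error of a call from 1 array per group. Genes of the lists were named by rule, up to 4 per list and comparison with the largest differences of at least 2-fold. Genes by likeness were 3 for each of 3 members. Other list genes named for comparison, DUSP2, DUSP7, ETV4, ETV5, PHLDA1, CCND1 and LIF, were chosen after their values were seen. The members and lists were chosen with earlier results of these data known.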

Additional observations from a re-analysis of the deposited data

How the results depend on the processing

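Each result was recomputed with the brightest probe set per gene, the median over probe sets, median-centred arrays, quantile normalization, 64 added to intensities, thresholds of 1.5-fold and 3-fold and filters on mean level. For the 9 genes with 1 probe set, the first 2 of these settings could not change a value. The median could not change SPRY1 either, which has 2 probe sets. Of 150 recomputed differences of single genes, these unchanged ones included, 149 kept their side of 2-fold. The exception was SPRY1 in spheres against day 3 with 64 added, at -0.99 in log2, which took the count of genes lower there from 2 to 1. At 1.5-fold the counts of lower genes against untreated cells became 2 at day 3 and 2 in spheres. At 3-fold they were 0 higher and 0 lower at day 3 and 1 lower in spheres against day 3. Limited to the 6 genes with a mean level in the upper quartile, which leaves out SPRY1, the counts of lower genes were 0 at day 3, 0 in spheres against untreated cells and 1 in spheres against day 3, and the day 3 median was 0.18 instead of -0.12. Shares called over all genes were not computed at 1.5-fold, at 3-fold or for the upper quartile. These counts therefore have no background beside them. DUSP1 ranged from 1.33 to 1.40 at day 3 and SPRY1 from -2.62 to -2.16 in spheres against untreated cells. A median counted as moved past the SD between probe sets of a gene. No paired analysis was possible because each group has 1 array and the labels carry no replicate numbers. No replicate could be left out, and signal over background is unknown.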

Other observations

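DUSP1 was at least 2-fold higher at day 3 than on both other arrays. Of 117 listed genes of the pathway 4 had the same order at 2-fold, namely EGR1, AREG, EREG and FGFR4. Over all named genes 268 of 17185 (1.56%) had it, and 83 of 8578 (0.968%) past the level filter. Both differences share the day 3 array, so they are not independent. This order was looked for after the values of DUSP1 were seen.

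SPRY1 was at least 2-fold lower at day 3 than in untreated cells and at least 2-fold lower again in spheres. None of the 117 listed genes (0) had this order. Over all named genes 24 of 17185 (0.140%) had it, and 3 of 8578 (0.0350%) past the level filter, SPRY1 among them. With 64 added to each intensity the second step of SPRY1 was just under 2-fold. This order, too, was looked for after the values were seen.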
